A study of Mus musculus with 4 samples.

Results

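The 8 genes described here encode transcription factors known from the dental epithelium, and they were chosen by symbol: Sp6, Trp63, Sox2, Isl1, Tbx1, Irx1, Foxi3 and Satb1, which are 8 of the 32285 features in each count table. The series measured single-cell RNA of mouse molar tooth organs in 4 libraries, 1 for each jaw (maxillary or mandibular) and stage. The stages were an embryonic one, E15.5, which the sample labels write as E15, and postnatal day 1 (P1). All groups carried the label WTB6 (wild-type C57BL/6J mice by the study's methods), with no treatment and no engineered allele, and tooth organs of several embryos or pups (n=6 in the protocol, which gives the pups' age as P0/P1) were pooled before dissociation. With 1 library per stage and jaw, no difference between conditions was tested, and each interval below is a 95% interval for counting error alone. Animals within a pool cannot be told apart.

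Enamel is made by ameloblasts, which arise from the inner dental epithelium, the layer that faces the mesenchymal dental papilla. The enamel knot is a signaling center in that layer, the stratum intermedium and stellate reticulum lie above it, and the outer dental epithelium closes the organ on its outer side. The dental epithelium itself grows out of the oral epithelium, and odontoblasts, the dentin-forming cells, differentiate from the papilla directly beneath the ameloblasts. The 8 factors have different known roles. Trp63 encodes p63, on which all stratified epithelia depend, and Sp6 (epiprofin) is needed for ameloblast formation. Sox2 is a progenitor factor of oral and dental epithelium, while Satb1 organizes chromatin and acts in polarized ameloblasts. Isl1 (a LIM homeobox gene), Tbx1 (a T-box gene), Irx1 (an Iroquois homeobox gene) and Foxi3 (a forkhead gene downstream of ectodysplasin) pattern the tooth epithelium.

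The positions on GRCm38 (mm10), read from GENCODE vM21, are as follows. Sp6 (ENSMUSG00000038560) lies on the plus strand of chromosome 11 from 97013394 to 97024734. Trp63 (ENSMUSG00000022510) covers 208 kb of the plus strand of chromosome 16 from 25683763 to 25892102, and its isoforms cannot be told apart in 3′ counts. Tbx1 (ENSMUSG00000009097) lies on the minus strand of the same chromosome from 18580979 to 18590671. Sox2 (ENSMUSG00000074637) has 1 annotated transcript on the plus strand of chromosome 3 from 34650405 to 34652461. It sits inside the non-coding gene Sox2ot, which runs on the same strand from 34104270 to 34682619, so reads from the overlap may count for either gene. Isl1 (ENSMUSG00000042258) lies on the minus strand of chromosome 13 from 116298281 to 116309689. Irx1 (ENSMUSG00000060969) lies on the same chromosome and strand from 71957921 to 71963723. Foxi3 (ENSMUSG00000055874) lies on the plus strand of chromosome 6 from 70956531 to 70961066. Satb1 (ENSMUSG00000023927) covers 97.1 kb of the minus strand of chromosome 17 from 51736187 to 51833290. All 8 are annotated as protein-coding, and the counts are sums over a whole gene.

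Barcodes with 1000 or more UMIs were used (UMIs are the random tags by which each captured RNA molecule is counted once). The E15.5 maxillary table held 10885 barcodes, of which 8395 were kept as cells with a median of 9887 UMIs. The E15.5 mandibular table held 7947 and gave 6059 cells with a median of 11595. The P1 maxillary table held 18707 and gave 13760 cells with a median of 3950, and the P1 mandibular table held 19401 and gave 7591 cells with a median of 10945. Total UMIs per table ran from 86659227 at E15.5 mandibular to 139873101 at P1 mandibular.

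The P1 libraries shared 7131 barcodes, whereas any other pair of libraries shared 28 to 70. A shared barcode held a median of 4.21 times as many UMIs in the maxillary as in the mandibular library, with 90% of these ratios between 4.01 and 4.55 (the 5th and 95th percentiles). Such barcodes were therefore kept in the maxillary library and dropped from the mandibular one. In mesenchyme-like cells Hand2, a gene of lower-jaw mesenchyme, was at 17.2 and 7.48 UMIs per 1000000 (CPM) in the mandibular libraries of E15.5 and P1. It was at 1.54 CPM in the E15.5 and 0.0472 CPM in the P1 maxillary library, and within the latter at 0.0566 CPM in shared barcodes. Dlx5 and Dlx6, measured beside Hand2, did not set the shared barcodes apart from the P1 mandibular library in this way. They were at 170 and 20.1 CPM in shared barcodes and at 136 and 23.7 CPM in the P1 mandibular library. In P1 maxillary barcodes that were not shared they were at 15.4 and 3.22 CPM. Most cells of the named dental types in the P1 maxillary library were shared barcodes. They made up 331 of 338 ameloblast-like, 225 of 241 outer dental, 272 of 280 odontoblast-like and 2818 of 2849 papilla-like cells. In the stellate reticulum or stratum intermedium type the share was lower, at 167 of 219 cells. Maxillary barcodes that were not shared had a median of 2545 UMIs, against 12089 for the shared ones. P1 maxillary values for dental cells therefore rest mostly on shared barcodes, and P1 mandibular values rest on none. The jaw of the shared dental cells is uncertain, since the dental cells that were not shared are too few to check it against. Each P1 jaw comparison within a dental type is thus mostly a comparison of the shared barcodes with those of the mandibular library alone.

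Cells were clustered within each library and named by marker lists, so every class is a group rebuilt from the counts that resembles the cell type it is named for. The 8 genes were kept out of the genes used for clustering and out of the marker lists. Epithelium-like cells, marked by keratins, Epcam and Cdh1, numbered 727 at E15.5 maxillary, 104 at E15.5 mandibular, 1969 at P1 maxillary and 1368 at P1 mandibular. Mesenchyme-like cells numbered 5051, 1906, 7586 and 3477 in the same order. A share of cells had no name: 0.441%, 19.0%, 1.21% and 16.3%. A level is the sum of a gene's UMIs over the cells of a class, per 1000000 UMIs of that class (CPM).

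The expression of most members was concentrated in epithelium at both stages. In the E15.5 maxillary library 7 of 8 genes were 2-fold or more higher in epithelium-like than in mesenchyme-like cells, against 14.5% of the 19558 genes with 10 or more UMIs. In the E15.5 mandibular library the count was 7 of 7 (18.3% of all genes), with Foxi3 under 10 UMIs. At P1 it was 8 of 8 in the maxillary (15.8% of all genes) and 7 of 8 in the mandibular library (13.0% of all genes). The median log2 difference of the members was between 5.74 and 7.29, beside medians between -0.08 and 0.08 over all genes. The exceptions were Satb1 at E15.5 maxillary, 17.7 against 8.88 CPM or 1.99-fold, and Sp6 at P1 mandibular, 213 against 108 CPM or 1.98-fold. Both lie at the 2-fold limit and passed it under some other settings. Across these the log2 was between 0.95 and 1.22 for Satb1 and between 0.85 and 1.5 for Sp6 (0.99 in both as reported). The highest Sp6 value was reached when clusters were named without regard to their leading genes, a setting chosen after seeing the data.

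Trp63, the p63 gene, was at 268 CPM (258 to 277), 271 (251 to 293), 460 (450 to 469) and 554 (544 to 565) in epithelium of the E15.5 maxillary, E15.5 mandibular, P1 maxillary and P1 mandibular libraries. In mesenchyme it was at 1.32, 0.369, 2.83 and 3.60 CPM, so the epithelial level was 154-fold to 735-fold above it, with intervals far apart in each library. The mesenchymal level at P1 was close to that in immune-like cells, 1.45 and 4.52 CPM, which should lack the gene. After each cell was thinned to 2000 UMIs, Trp63 was seen in 36.6%, 36.2%, 40.5% and 55.3% of epithelium-like cells, and in 0 of 375, 0 of 206, 1 of 308 and 3 of 318 immune-like cells (exact intervals up to 0.979%, 1.77%, 1.80% and 2.73%). Without thinning the epithelial shares were 79.0%, 77.9%, 59.8% and 83.6%. It was present in every dental, oral and gland type that took a name, from 64.1 CPM in E15.5 maxillary gland cells to 795 CPM in P1 maxillary outer dental cells.

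**Figure D1:**
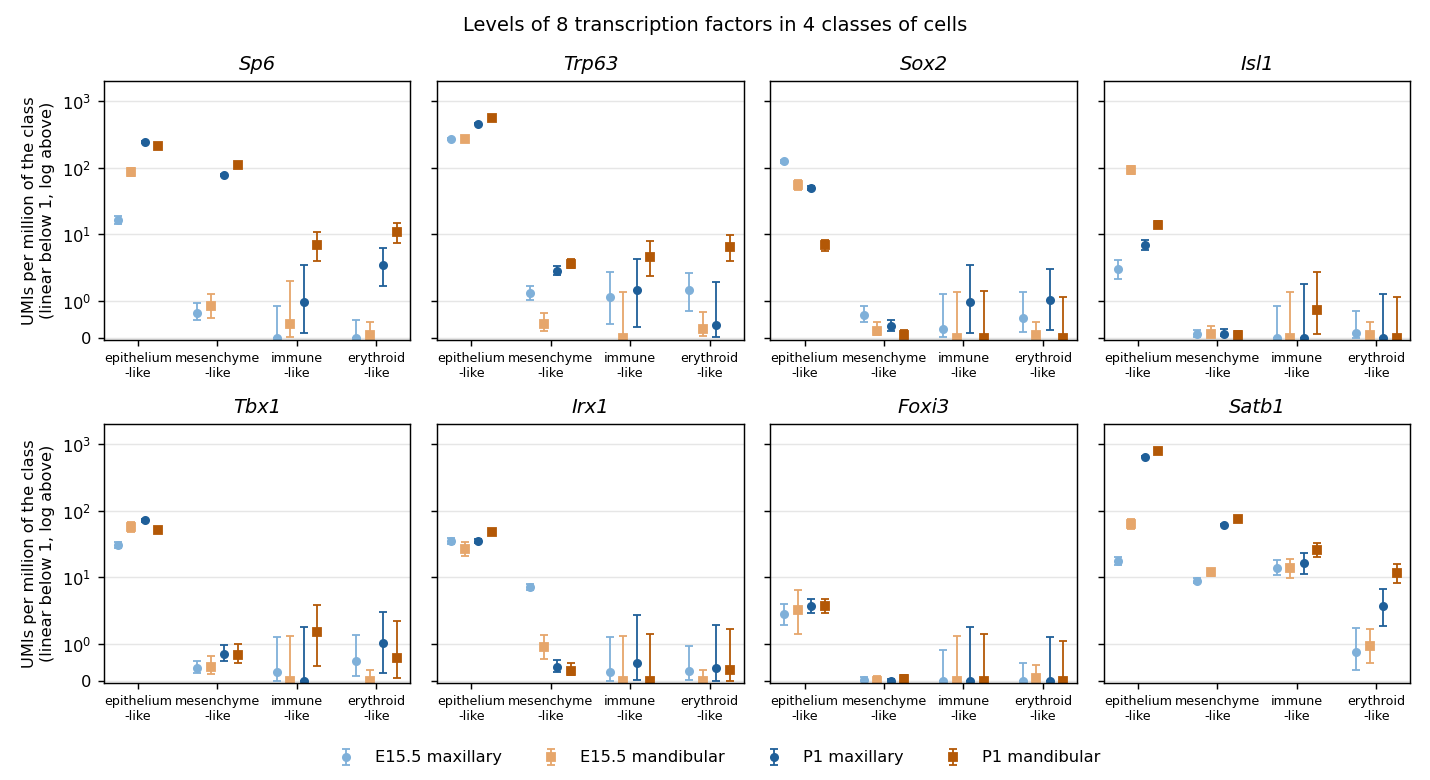
Level of each of the 8 genes (CPM of a class, axis linear below 1 and logarithmic above) in epithelium-like, mesenchyme-like, immune-like and erythroid-like cells of the 4 libraries. Points are summed levels and bars their exact 95% Poisson intervals. Sp6 and Satb1 stand out in P1 mesenchyme, at 76.8 and 108 CPM and at 62.2 and 74.4 CPM, while Trp63, Sox2, Isl1, Tbx1 and Foxi3 stay below 4 CPM in all mesenchyme.

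Outside the epithelium, Sox2, Isl1, Tbx1 and Foxi3 were below 2 CPM in mesenchyme-like, immune-like and erythroid-like cells, and Sox2, Isl1 and Tbx1 were higher in further classes. Sox2 was at 103, 119, 95.9 and 107 CPM in glia-like cells of the 4 libraries, and Sox2 is a known factor of Schwann lineage cells. In the P1 maxillary library it was also at 63.6 CPM in neuron-like and 293 CPM in unnamed cells. Isl1 reached 58.5 and 76.0 CPM in muscle-like cells of the E15.5 and P1 maxillary libraries, but 4.08 and 5.21 CPM in those of the mandibular libraries, and it was at 33.4 CPM in P1 maxillary neuron-like cells. Tbx1, which also acts in head muscle and in vessels, was at 19.9, 12.7, 30.4 and 25.1 CPM in endothelium-like and at 30.6, 10.1, 48.1 and 9.37 CPM in muscle-like cells. Trp63 was at 7.95, 1.46, 28.6 and 5.21 CPM in muscle-like cells. It reached 42.5 CPM in an E15.5 maxillary muscle-like cluster led by Myh3 and 132 CPM in a P1 maxillary one led by Tnnc2. Unnamed mandibular clusters led by Tnnc1 (E15.5) and Tnnt3 (P1) were at 37.6 and 91.6 CPM, from 6 and 33 UMIs. Irx1 was at 7.20 CPM in E15.5 maxillary mesenchyme, where 1 cluster of 150 cells, led by Twist2 and Irx1 itself, was at 156 CPM and held 228 of the 394 UMIs. A cluster of 344 cells led by Mxd3 and Depdc1a was at 15.4 CPM with 64 UMIs. Foxi3 had the fewest UMIs: 34, 8, 73 and 71 in the epithelium of the 4 libraries, or 2.82, 3.23, 3.71 and 3.76 CPM. Its intervals overlap in all libraries. Satb1 was also found outside the epithelium. Glia-like cells held 43.3 to 62.6 CPM and immune-like cells 13.7 to 26.0 CPM.

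At P1 the members separated the named dental types. The 338 maxillary and 427 mandibular ameloblast-like cells were high in Satb1 and Sp6 and had almost no Irx1, Isl1, Sox2 or Foxi3. The 241 and 225 cells of outer dental type were high in Trp63 and Irx1 and low in Sp6. The stellate reticulum or stratum intermedium type (219 and 266 cells) lay between them for most members. In ameloblast-like over outer dental cells, 2 of the 7 maxillary members with 10 or more UMIs were 2-fold or more higher (10.6% of all genes) and 2 were lower (18.5% of all genes). In the mandibular library 2 of 8 were higher (10.3% of all genes) and 5 were lower (27.9% of all genes). With shared barcodes left out of both libraries, no such ratio could be given in the maxillary library, since neither type was then found there.

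Sp6 was at 478 CPM (458 to 498) in maxillary and 414 CPM (398 to 430) in mandibular ameloblast-like cells. In outer dental cells it was at 28.8 (23.5 to 34.9) and 29.8 (24.7 to 35.7). The intervals do not overlap in either jaw, and the ratio was 16.6-fold in the maxillary and 13.9-fold in the mandibular library (log2 4.05, interval 3.77 to 4.35, and 3.80, interval 3.53 to 4.07). The mandibular log2 was 2.13 with a limit of 3 MADs (median absolute deviations) on detected genes per cell and 3.11 with doublets kept. Cells of the stellate reticulum or stratum intermedium type were at 108 and 221 CPM. After thinning, 55.2% and 57.3% of ameloblast-like cells had a Sp6 UMI, against 5.08% and 3.12% of outer dental cells. In erythroid-like cells, which should lack the gene, the shares were 0 of 518 (interval up to 0.710%) and 1.38%. The shares without thinning were 97.0% and 97.9% in ameloblast-like and 28.6% and 31.1% in outer dental cells. The median UMIs per cell were 13620 and 13755 in ameloblast-like cells, 11825 and 13073 in outer dental cells and 1935 and 4211 in erythroid-like cells.

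Satb1 was at 1684 CPM (1647 to 1722) and 1976 CPM (1940 to 2012) in ameloblast-like cells and at 167 (154 to 181) and 123 (113 to 135) in outer dental cells. That is 10.1-fold and 16-fold (log2 3.34 and 4.0). The mandibular log2 was 3.03 with the limit on detected genes and 3.01 with doublets kept. It was at 204 and 465 CPM in the stellate reticulum or stratum intermedium type and at 5.69, 7.42 and 4.27 CPM in the suprabasal oral type of the E15.5 maxillary, P1 maxillary and P1 mandibular libraries. Satb1 UMIs were found in 91.0% and 95.5% of thinned ameloblast-like cells, against 0.193% and 2.56% of erythroid-like cells. Within the mandibular ameloblast-like cells, a subcluster of 51 cells led by Ralyl and Enam reached 3238 CPM, while the other subclusters were at 1921 and 1708 CPM. A further 280 mandibular cells outside the named classes, led by Ralyl and Stmn2, had Satb1 at 1568 CPM, Sp6 at 477, Trp63 at 605, Krt14 at 1783 and Irx1 at 0 CPM. Their nearest class was epithelium, but their leading genes belonged more to another list, so they stayed unnamed and out of the epithelial values.

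Irx1 ran the other way. In outer dental cells it was at 137 CPM (125 to 150) and 152 CPM (140 to 164), and in ameloblast-like cells 2 UMIs in each library gave 0.425 and 0.337 CPM. The log2 ratio of ameloblast-like over outer dental cells was -8.33 (-11.38 to -6.47) and -8.81 (-11.86 to -6.95). With doublets kept it was -4.82 and -3.21, and in the mandibular library it was -5.04 at a Leiden clustering resolution of 2.0. Cells of the stellate reticulum or stratum intermedium type were in between at 43.5 and 27.0 CPM. In thinned cells Irx1 was seen in 23.7% and 22.8% of outer dental cells and in none of 335 and 426 ameloblast-like cells, with exact intervals that reach 1.10% and 0.862%.

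Trp63 was lower in ameloblast-like cells, 489 and 441 CPM, than in outer dental cells, 795 and 780 CPM, by a log2 of -0.70 (-0.78 to -0.62) and -0.82 (-0.90 to -0.75), under 2-fold in both jaws. The range across subclusters of the same type was as wide. The 3 maxillary ameloblast-like subclusters were at 397, 756 and 336 CPM, and the mandibular ones at 429, 302 and 1005 CPM, so this difference did not hold for every subcluster. Tbx1 was at 39.1 and 19.2 CPM in ameloblast-like, 62.3 and 98.5 in stellate reticulum or stratum intermedium and 53.9 and 50.5 in outer dental cells. Foxi3 was at 1.06 and 0 CPM in ameloblast-like, 5.0 and 6.30 in stellate reticulum or stratum intermedium and 6.09 and 5.81 in outer dental cells.

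The inner dental epithelium or enamel knot type, named by Shh and Fgf4 among others, was found in 28 E15.5 maxillary, 15 E15.5 mandibular and 53 P1 mandibular cells. Its Sp6 level was 263 CPM (213 to 320), 134 (99.4 to 178) and 301 (257 to 350). Tbx1 was at 190, 65.8 and 113 CPM. Foxi3 was at 18.8 (7.55 to 38.7), 11 (2.99 to 28.1) and 10.8 (3.95 to 23.4), from 7, 4 and 6 UMIs, and these were its 3 highest levels among the named types. In the P1 maxillary library no subcluster took this name. Subclusters of 139 and 138 cells there, led by Tafa1 with Tcerg1l or Moxd1, stayed unnamed. They were at 518 and 461 CPM of Sp6, 211 and 183 CPM of Tbx1, 960 and 835 CPM of Satb1 and 812 and 478 CPM of Shh. The second of them was also rich in the proliferation gene Mki67, 574 CPM against 51.0 in the first.

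**Figure D2:**
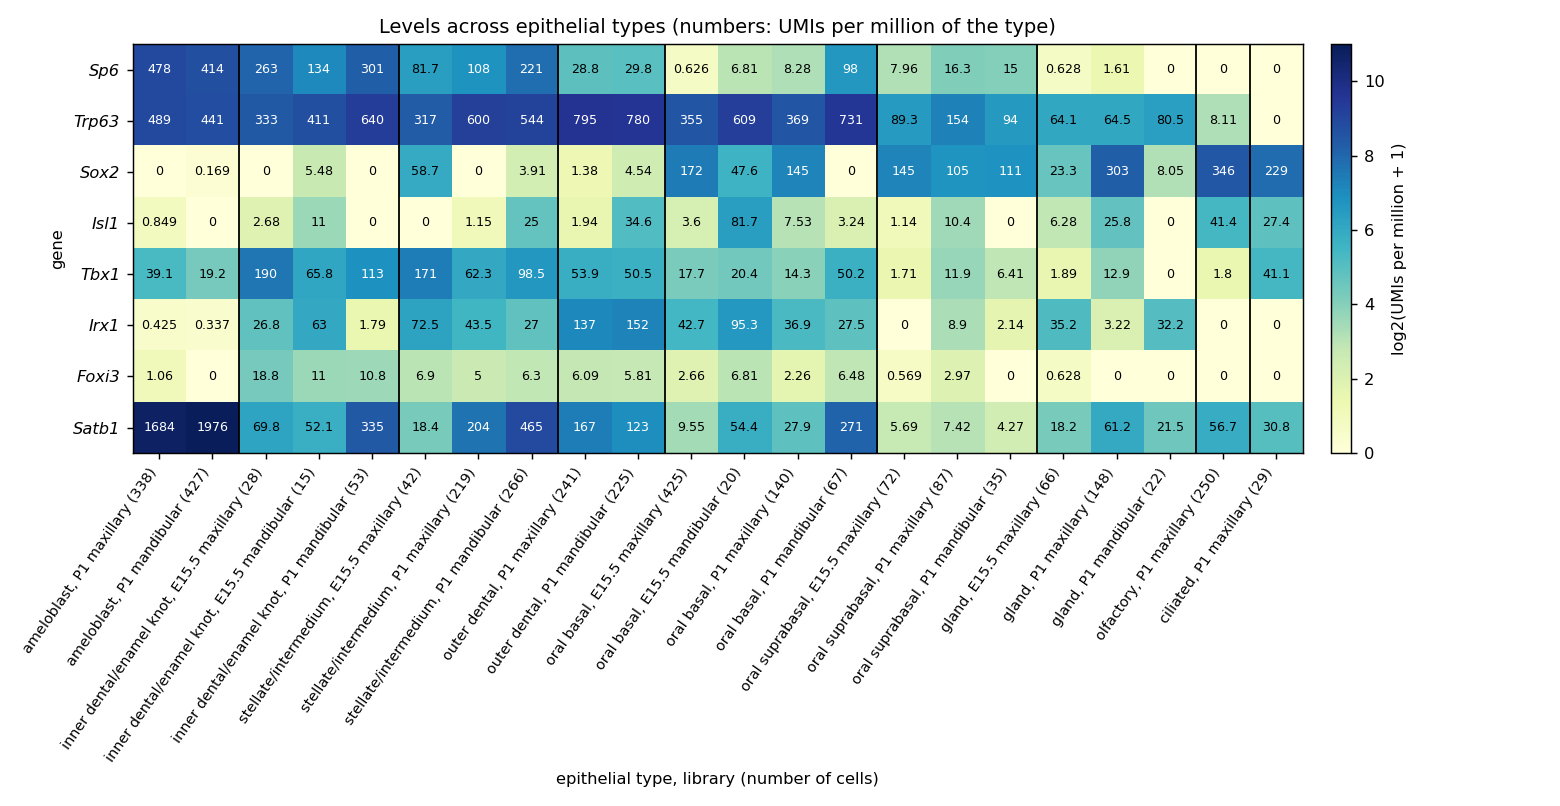
Levels of the 8 genes (rows) in each named epithelial type and library (columns, with the number of cells), printed as CPM and colored by log2(CPM + 1). Satb1 and Sp6 are darkest in ameloblast-like cells, Irx1 in outer dental cells at 137 and 152, and Sox2 in P1 maxillary olfactory sustentacular cells at 346.

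In the maxillary libraries Sox2 was higher in oral types than in named dental types. It was at 172 CPM (162 to 183) in the 425 oral basal cells of the E15.5 maxillary library and at 145 CPM (125 to 167) in the 140 of the P1 maxillary library. The 20 oral basal cells of the E15.5 mandibular library were lower, at 47.6 CPM (26.0 to 79.9), near an unnamed subcluster of 18 cells there led by Spon1 and Sox2ot at 54.0 CPM. The E15.5 maxillary oral basal cells were uneven as well: their subclusters ran from 9.0 to 444 CPM, and the one with the most cells, 73, was at 27.8 CPM. Suprabasal oral cells were at 145, 105 and 111 CPM in the E15.5 maxillary, P1 maxillary and P1 mandibular libraries. At P1 Sox2 was at 1.38 and 4.54 CPM in outer dental cells and at 0 and 0.169 CPM in ameloblast-like cells. The P1 maxillary oral basal level was 105-fold above that of outer dental cells, at a log2 of 6.71 (5.46 to 8.35) from 192 and 5 UMIs. The highest Sox2 levels lay outside the tooth. Olfactory sustentacular cells of the P1 maxillary library, support cells of the nasal lining, were at 346 CPM (312 to 382), and ciliated cells there were at 229 CPM. The gland type of that library was at 303 CPM, but it held a subcluster of 51 cells at 651 CPM whose leading genes, Fezf2 and Hpse2, are not gland genes. At P1 these values go against the label of dental epithelium for Sox2.

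In E15.5 maxillary dental types Sox2 was still present. The 42 cells of the stellate reticulum or stratum intermedium type were at 58.7 CPM (43.7 to 77.1), whereas the 28 inner dental or enamel knot cells had no UMI, with an exact interval that reaches 9.90 CPM. At P1 the maxillary stellate reticulum or stratum intermedium type had no Sox2 UMI, with an exact interval that reaches 1.42 CPM. Against a floor of 3 counts, 1.15 CPM, the E15.5 level was at least 50.8-fold higher.

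The oral basal name did not hold in 1 case. The 67 P1 mandibular cells with that name formed 1 subcluster led by Pcsk2 and Tmem178b, with Sox2 at 0 CPM, Sp6 at 98.0, Satb1 at 271 and Shh at 427 CPM. They were left out of the statements on oral basal cells. In the E15.5 maxillary library, a subcluster of 34 cells within the oral basal type was led by Cadm2 and Odam. Its Sox2 level was 9.0 CPM, its Trp63 level 893, its Irx1 level 220 and its Tbx1 level 87.7 CPM.

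Isl1 had the widest jaw difference of the 8 genes at E15.5. Over all epithelium-like cells it was at 2.99 CPM (2.09 to 4.13) at E15.5 maxillary and at 92.2 CPM (80.6 to 105) at E15.5 mandibular, 30.9-fold higher (log2 4.95, interval 4.44 to 5.50). At P1 it was at 6.96 (5.85 to 8.23) and 13.9 (12.3 to 15.7) CPM (log2 1.0), but the log2 was -0.21 as a mean over cells. The E15.5 mandibular level came from 104 cells. An unnamed subcluster of 18 cells led by Spon1 was at 383 CPM, another of 21 cells led by Gnrh1 at 167 CPM and the oral basal subcluster of 20 cells at 81.7 CPM. The 15 inner dental or enamel knot cells were at 11 CPM.

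Within 2 P1 types, outer dental and stellate reticulum or stratum intermedium, the jaw difference of Isl1 was larger than over all epithelium. Outer dental cells were at 1.94 CPM (0.779 to 3.99) in the maxillary and 34.6 CPM (29.0 to 40.9) in the mandibular library, a log2 of 4.16 (3.08 to 5.50). The stellate reticulum or stratum intermedium type was at 1.15 (0.238 to 3.37) and 25.0 (20.6 to 30.0), a log2 of 4.44 (2.85 to 6.74) from 3 and 115 UMIs. Both types were uneven in the mandibular library. The outer dental subcluster led by Adamts3 was at 86.6 CPM and the one led by Mindy4 and Odam at 0, while their maxillary counterparts with the same leading genes were at 4.62 and 0.432 CPM. In the stellate reticulum or stratum intermedium type, the mandibular UMIs lay in the subclusters led by Depdc1a (32.9 CPM) and Egfem1 (50.3 CPM). Its Csmd1 subcluster had none, and the maxillary one with Csmd1, Jph4 and Kcnb2 was at 0.588 CPM. The maxillary subcluster with Tafa1 and Moxd1, leading genes shared with the Egfem1 one, was unnamed, outside the type and at 0 CPM. The log2 of this type thus compares subclusters that differ in part. In other types the maxillary level was the higher one, from few UMIs. Ameloblast-like cells held 4 and 0 UMIs, suprabasal oral cells 7 and 0 (10.4 and 0 CPM) and gland cells 16 and 0 (25.8 and 0 CPM). The maxillary UMIs of the dental types came largely from the few barcodes that were not shared. In outer dental cells the 225 shared barcodes held 2 Isl1 UMIs (0.563 CPM) and the 16 others held 5 (80.2 CPM). In the stellate reticulum or stratum intermedium type the 167 shared barcodes held none and the 52 others 3 (29.3 CPM). The jaw difference within these types therefore rests on the shared barcodes, and its size among the others cannot be given from so few UMIs. In the P1 maxillary library Isl1 was also at 41.4 CPM in olfactory sustentacular and 27.4 in ciliated cells, types that were not found in the mandibular library.

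**Figure D3:**
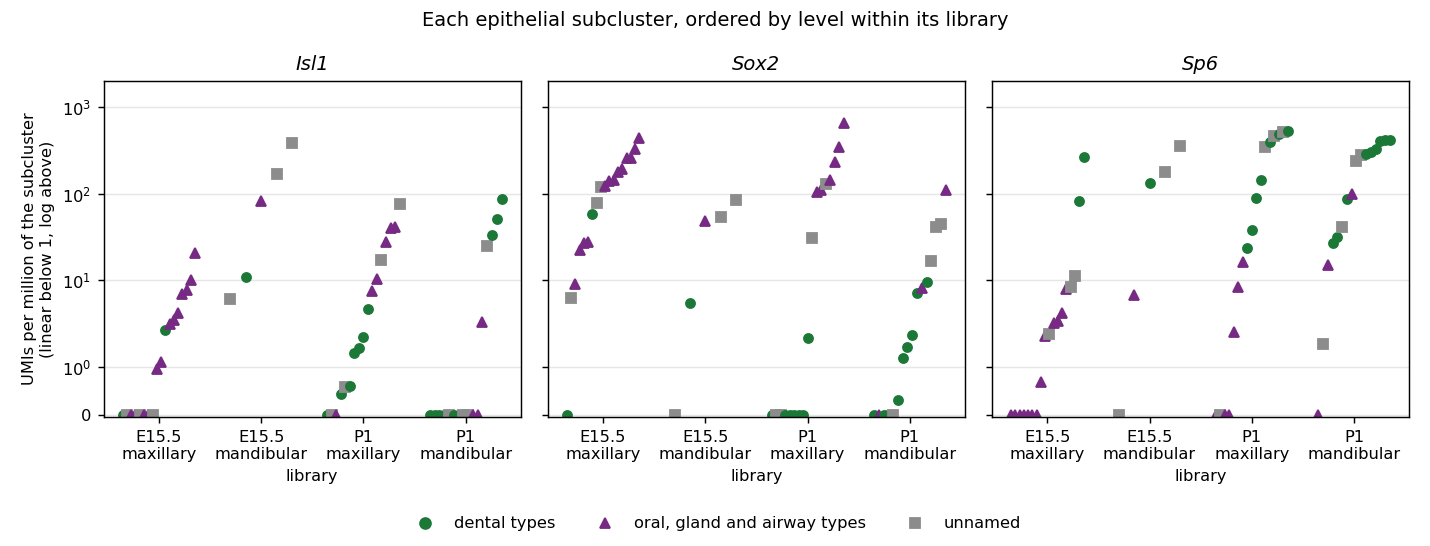
Each epithelial subcluster as 1 point, ordered by level within its library, for Isl1, Sox2 and Sp6 (CPM, axis linear below 1 and logarithmic above). In the maxillary libraries the dental types (circles) lie below 5 CPM for Isl1, while mandibular points reach 86.6 at P1; the highest Sox2 point, at 651, is the P1 maxillary subcluster led by Fezf2 and Hpse2.

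Other jaw differences over all epithelium at E15.5 were Sp6, 86.5 against 16.2 CPM, Satb1, 63.5 against 17.7 CPM, and Sox2, 54.2 against 124 CPM in mandibular and maxillary cells. With Isl1, 3 of 8 genes were higher in the mandibular library (4.57% of all genes) and 1 was lower (2.73% of all genes, counted as 2-fold or more with an interval that leaves out 0). At P1 none was higher in the mandibular library (2.89% of all genes), with Isl1 at 1.99-fold, and 1 was higher in the maxillary library (7.80% of all genes). That gene was Sox2, at 49.2 against 6.78 CPM. Jaw and library cannot be told apart in this design. The make-up of the epithelium differed as well. Of the E15.5 maxillary epithelium, 425 of 727 cells were oral basal, against 20 of 104 mandibular cells, and the P1 maxillary epithelium held 250 olfactory sustentacular cells. The part of make-up in these differences was not tested over all epithelium. Within the inner dental or enamel knot type at E15.5, 15 mandibular and 28 maxillary cells, the order of Sp6 was the other way, 134 against 263 CPM (log2 of mandibular over maxillary -0.97, interval -1.49 to -0.46). Tbx1 was also lower in the mandibular cells, 65.8 against 190 CPM (-1.53, -2.27 to -0.85), Irx1 was higher, 63 against 26.8 CPM (1.23, 0.11 to 2.47), and the interval for Satb1 held 0 (-0.42, -1.36 to 0.49). Unnamed mandibular subclusters of 21 and 18 cells, led by Gnrh1 and by Spon1, were outside this type. They were at 354 and 180 CPM of Sp6, 224 and 126 of Tbx1, 11.4 and 0 of Irx1 and 160 and 100 of Satb1. Their Shh levels were 422 and 59.1 CPM. These orders hold for the named cells only.

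Within types the P1 jaw differences were of mixed size. In outer dental cells the log2 of mandibular over maxillary was 0.05 (-0.34 to 0.44) for Sp6, -0.03 (-0.10 to 0.05) for Trp63, 0.15 (-0.03 to 0.32) for Irx1, -0.10 (-0.39 to 0.20) for Tbx1 and -0.43 (-0.61 to -0.26) for Satb1. In ameloblast-like cells it was -0.21 for Sp6, -0.15 for Trp63 and 0.23 for Satb1, and -1.02 (-1.37 to -0.68) for Tbx1. In the stellate reticulum or stratum intermedium type Sp6 (1.02) and Satb1 (1.19) were higher in the mandibular library. That library's type included subclusters of 96 and 82 cells, led by Depdc1a and by Egfem1, with Sp6 at 286 and 324 CPM and Satb1 at 603 and 678 CPM. Its subcluster led by Csmd1 was at 86.4 CPM of Sp6 and 184 CPM of Satb1, beside 89.9 and 202 CPM in the maxillary subcluster that also had Csmd1, Jph4 and Kcnb2 among its leading genes. The mandibular subcluster led by Egfem1 had Tafa1 and Moxd1 among its leading genes, and the maxillary subcluster with these genes was unnamed and outside the type. When shared barcodes were left out of both P1 libraries, all 8 genes differed between the jaws over all epithelium, and Sp6 (2.35), Tbx1 (1.05) and Isl1 (-1.40) changed direction. No share of all genes is given at this setting, so that count is not a result about the members.

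Between stages, Satb1 and Sp6 were higher at P1 in both jaws and Sox2 was lower. In maxillary epithelium 4 of 8 genes were higher at P1 (12.3% of all genes) and 1 at E15.5 (9.59% of all genes). In mandibular epithelium 3 of 8 were higher at P1 (6.66% of all genes) and 2 at E15.5 (9.33% of all genes). Satb1 went from 17.7 to 653 CPM in the maxillary and from 63.5 to 800 CPM in the mandibular libraries, by a log2 of 5.21 (5.01 to 5.41) and 3.66 (3.43 to 3.89). Sp6 went from 16.2 to 240 and from 86.5 to 213 CPM, by a log2 of 3.89 (3.68 to 4.10) and 1.30 (1.10 to 1.51). Sox2 went from 124 to 49.2 and from 54.2 to 6.78 CPM, by a log2 of -1.34 (-1.46 to -1.22) and -3.0 (-3.36 to -2.64). As a mean over cells the Sox2 values were -0.56 and -2.27. Trp63 was 1.72-fold and 2.04-fold higher at P1. Irx1 was at 35.4 and 35.6 CPM in the maxillary epithelium of both stages, a log2 of 0.01 (-0.17 to 0.18), and at 26.7 and 47.5 CPM in the mandibular epithelium, 1.78-fold higher at P1.

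Over all epithelium, Isl1 went in opposite directions, from 2.99 to 6.96 CPM in the maxillary and from 92.2 to 13.9 CPM in the mandibular libraries. Of the 137 Isl1 UMIs of P1 maxillary epithelium, 46 were in olfactory sustentacular cells, 29 in an unnamed subcluster of 71 cells led by Upk3a and Olfm5, 16 in gland and 8 in ciliated cells. The named dental types held 4, 3 and 7 UMIs and were at 0.849 (ameloblast-like), 1.15 (stellate reticulum or stratum intermedium) and 1.94 CPM (outer dental), beside 2.68 CPM (0.0679 to 14.9) from 1 UMI and 0 CPM (up to 4.24) in the 2 named dental types at E15.5. These P1 values rest mostly on the shared barcodes, whose jaw is uncertain. The 7, 52 and 16 barcodes that were not shared held 4, 3 and 5 of the UMIs, at 160, 29.3 and 80.2 CPM, so no direction between the stages can be given for maxillary dental types. Tbx1 was 2.35-fold higher at P1 in the maxillary libraries (30.5 and 71.8 CPM) and at a log2 of -0.19 (-0.45 to 0.07) in the mandibular ones. Without the shared barcodes the maxillary log2 of P1 over E15.5 was 2.10 for Satb1 and 1.37 for Sp6, and it changed direction for Trp63 (-1.21), Sox2 (1.01) and Tbx1 (-0.32).

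**Figure D4:**
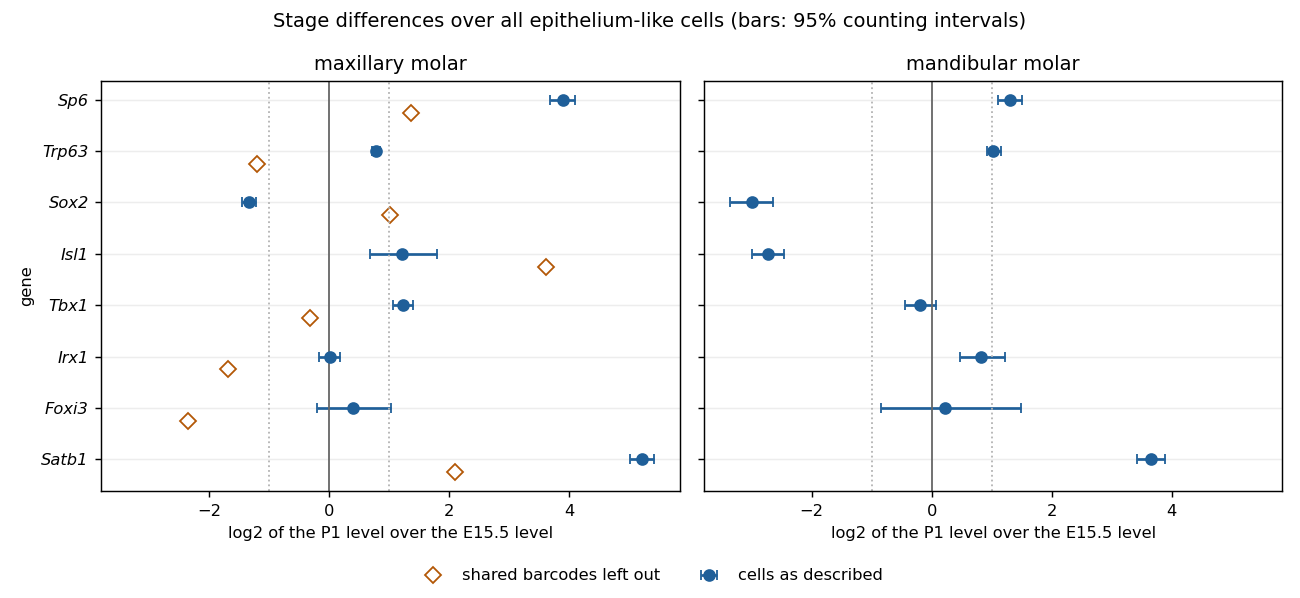
Log2 of the P1 level over the E15.5 level for each gene over all epithelium-like cells, by jaw, with exact 95% intervals for counting error (filled points) and, in the maxillary panel, the value with shared barcodes left out (open diamonds, no interval). Dotted lines mark 2-fold. Satb1 is farthest to the right in both jaws, at 5.21 and 3.66, and Isl1 lies on opposite sides of 0.

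Stage differences within a type could be given for a few types only, and some were smaller than over all epithelium or ran the other way. In maxillary oral basal cells Sox2 was at 172 and 145 CPM, a log2 of -0.25 (-0.48 to -0.03), and Trp63 was at 355 and 369 CPM. In the maxillary stellate reticulum or stratum intermedium type Sp6 was at 81.7 and 108 CPM (log2 0.41, interval 0.03 to 0.81), and Tbx1 was lower at P1, 171 against 62.3 CPM (log2 -1.46). Satb1 was higher at P1 within each of these types, by a log2 of 1.55 (0.91 to 2.16) and 3.47 (2.76 to 4.29), and by 2.69 (2.0 to 3.45) in mandibular inner dental or enamel knot cells. In the last type Sp6 was at 134 and 301 CPM (log2 1.16, interval 0.70 to 1.65). Irx1 was lower at P1 in that type, 63 against 1.79 CPM from 23 and 1 UMIs (log2 -5.14, interval -10.50 to -2.51), whereas it was higher at P1 over all mandibular epithelium. The E15.5 values of the type came from 15 cells. The unnamed E15.5 mandibular subcluster led by Gnrh1 was outside it, with Sp6 at 354, Satb1 at 160 and Irx1 at 11.4 CPM.

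Sp6 was also present in P1 mesenchyme, where most of the other members were near 0. Over all mesenchyme-like cells it was at 0.676 and 0.849 CPM at E15.5 and at 76.8 and 108 CPM at P1, in the order maxillary, mandibular. Odontoblast-like cells, marked by Dspp and Dmp1, were the highest at 303 CPM (289 to 318, 280 cells) in the maxillary and 389 CPM (367 to 413, 139 cells) in the mandibular library. Papilla-like cells were at 79.4 and 96.2 CPM, so the odontoblast level was 3.82-fold and 4.05-fold above it, a log2 of 1.93 (1.85 to 2.02) and 2.02 (1.91 to 2.12). The maxillary papilla clusters ran from 23.1 to 124 CPM and the mandibular ones from 26.3 to 127 CPM. Cells of the dental follicle or connective tissue type were at 2.74 and 6.2 CPM. That type held a maxillary cluster of 486 cells led by Igfbp5 and Bmp3 and a mandibular one of 79 cells led by Bmp3 and Calca. Their levels of the bone marker Ibsp, 994 and 2239 CPM, go against the name. Sp6 was at 1.89 and 4.05 CPM in them.

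Osteoblast-like cells were at 1.12 CPM in the maxillary library, from 3 UMIs. These 772 cells, led by Tnn and Sox6, had Ibsp at 34.7 CPM, below the 994 CPM of the follicle-type cluster. Ibsp thus goes against this name as well. In the mandibular library the name covered clusters that differed, 1 of 153 cells led by Mmp13 at 5.40 CPM and 1 of 517 cells led by Enpp6 and Grm8 at 116 CPM (109 to 124). The bone marker Ibsp was at 386 CPM in the former and at 9.37 CPM in the latter, which goes against the name. A further mandibular cluster of 205 cells, led by Mamdc2, Ifitm5 and Notum and left unnamed, was at 257 CPM of Sp6 (241 to 275). At E15.5 the papilla-like cells of the maxillary library were at 0.373 CPM. The highest E15.5 mesenchymal cluster was 1 of 73 mandibular cells led by Lypd1 and Plppr1, at 19.8 CPM.

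The level of Sp6 in odontoblast-like cells was 126-fold that of immune-like and erythroid-like cells together in the maxillary and 43.7-fold in the mandibular library. It was 63.4% and 94.0% of the level in ameloblast-like cells. Other epithelial genes were measured beside it. In odontoblast-like cells Krt14 was at 0.197% and 0.221% of its ameloblast level, Trp63 at 0.566% and 0.314%, Epcam at 0.135% and 0.346%, and Amelx (amelogenin, the main enamel protein gene) at 0.136% and 0.158%. The Amelx level of 26.4 and 97.6 CPM lay beside 19.1 and 206 CPM in erythroid-like cells, which should lack it. Krt5 was at 0.269% and 0.823%, Perp at 0.334% and 0.525% and Krt17 at 0.811% and 4.17%. Cdh1 was at 0.288% in the maxillary library and had no UMI in the mandibular one. Ambn, which encodes the enamel protein ameloblastin, was at 32.6% and 26.8%. Among these epithelial genes, then, Sp6 and Ambn were far above the rest. Krt14, Krt5, Krt17, Epcam, Cdh1 and Perp were markers of epithelium-like cells, so their low percentages may follow in part from the naming. Amelx and Ambn were markers of ameloblast-like cells, while Sp6 and Trp63 were kept out of the naming. Satb1 was at 140 and 192 CPM in odontoblast-like cells, 8.32% and 9.71% of its ameloblast level, and at 75.5 and 73.9 CPM in papilla-like cells.

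Per cell, 41.8% and 53.2% of odontoblast-like cells thinned to 2000 UMIs had a Sp6 UMI, and 95.7% and 100% without thinning. Immune-like cells, which should lack the gene, were at 0.325% and 0.629% when thinned. No thinned odontoblast-like cell had a Trp63 UMI (0 of 280 and 0 of 139, with exact intervals up to 1.31% and 2.62%). The median UMIs per cell were 20088 and 20285 in odontoblast-like and 2761 and 6974 in immune-like cells, and thinning left out 89 and 9 immune-like cells. Of the maxillary odontoblast-like cells, the 8 whose barcodes were not shared held 6 Sp6 UMIs, or 111 CPM. The mandibular library holds no shared barcode.

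**Figure D5:**
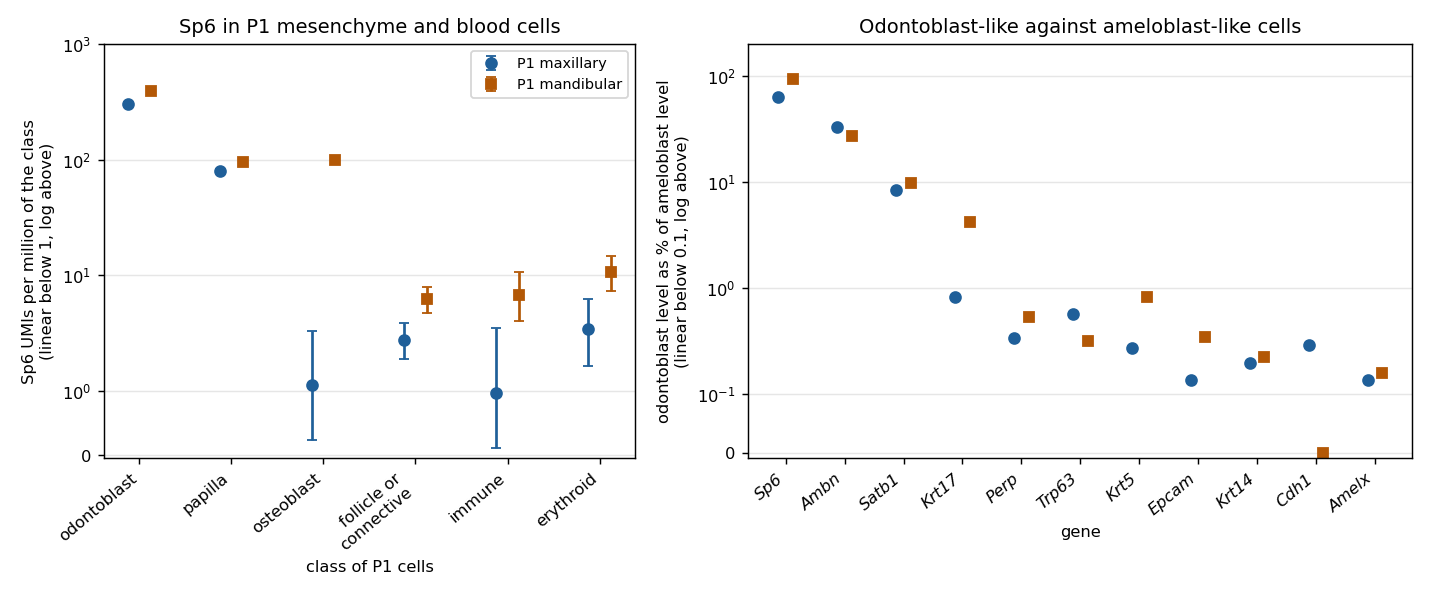
Left, Sp6 level (CPM, axis linear below 1 and logarithmic above) in P1 mesenchymal types and in immune-like and erythroid-like cells, with exact 95% Poisson intervals; the mandibular osteoblast point pools the clusters at 116 and 5.40 CPM. Right, the level of epithelial genes in odontoblast-like cells as a percentage of their level in ameloblast-like cells of the same library (axis linear below 0.1 and logarithmic above); Sp6 is at 63.4% and 94.0%, while Krt14, Trp63, Epcam and Amelx lie below 1%.

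A fixed list of 25 relatives of the 8 genes was set beside them. Between epithelium and mesenchyme it held genes of both directions. In the order E15.5 maxillary, E15.5 mandibular, P1 maxillary, P1 mandibular, 7, 7, 9 and 6 relatives were 2-fold or more higher in epithelium, of 18, 17, 22 and 18 with 10 or more UMIs. The shares of all genes were 14.5%, 18.3%, 15.8% and 13.0%. Lower were 5, 3, 6 and 5, beside 3911 of 19558 and 2766 of 17339 of all genes at E15.5 and 20.6% and 22.6% of all genes at P1. Irx2, the neighbor of Irx1 in the Iroquois cluster, had the pattern of Irx1: 93.0 and 106 CPM in outer dental cells and 1.49 and 1.18 CPM in ameloblast-like cells. Irx5 had the opposite one, 49.5 and 42.9 CPM in outer dental and 415 and 280 CPM in ameloblast-like cells. Sp7 (osterix, an osteoblast factor) and Sp9, named here after their values were seen, were at 60.5 and 62.0 CPM and at 69.6 and 60.5 CPM in P1 mesenchyme. In P1 epithelium they were at 5.59 and 4.82 CPM and at 0.966 and 0.689 CPM. Sox21 was at 79.6 and 121 CPM in ameloblast-like and at 0.277 and 0.757 CPM in outer dental cells, types in which Sox2 was near 0. Trp73 was at 64.2 and 69.9 CPM in outer dental and at 11.7 and 8.94 CPM in ameloblast-like cells. Sp1, Sp3, Sp4 and Trp53 were at 20.8 to 117 CPM in all epithelium-like cells and at 11.9 to 112 CPM in mesenchyme.

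A list of 24 other transcription factors of tooth and oral epithelium was measured in full in each library, and 16, 21, 13 and 14 were 2-fold or more higher in epithelium. Lower were 2, 0, 2 and 3. Of all genes, 14.5%, 18.3%, 15.8% and 13.0% were higher, and lower were 3911 of 19558, 2766 of 17339, 4202 of 20378 and 4454 of 19714. Sox9 was at 307 and 376 CPM in outer dental and at 6.16 and 4.72 CPM in ameloblast-like cells. Foxo1 was at 437 and 467 CPM against 188 and 127 CPM. Dlx3 was higher in ameloblast-like cells, 125 and 113 against 30.2 and 32.6 CPM. In ameloblast-like over outer dental cells, 4 of 19 measured were higher and 11 lower in the maxillary library (10.6% and 18.5% of all genes). In the mandibular one 4 of 21 were higher and 13 lower (10.3% and 27.9% of all genes). Hopx and Klf5 were at 294 and 286 CPM in suprabasal oral cells of the P1 maxillary library, where Tbx1 was at 11.9 CPM and Irx1 at 8.90 CPM. Barx2 was at 110 and 190 CPM in suprabasal oral cells at P1 and at 4.03 and 0.337 CPM in ameloblast-like cells.

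Of 13 genes known to depend on p63 or Sp6, 9 of 11, 10 of 11, 12 of 12 and 13 of 13 measured were higher in epithelium, against 14.5%, 18.3%, 15.8% and 13.0% of all genes. Lower were 2 in the E15.5 maxillary library and 0 in the others. Krt5, Krt14 and Perp are on this list and were also among the markers of epithelium-like cells, so part of this count may follow from the naming. The p63-dependent basal keratin Krt14 was at 2106 and 2509 CPM in ameloblast-like, 2145 and 2775 in outer dental and 480 and 591 CPM in stellate reticulum or stratum intermedium cells at P1. Perp, a desmosome gene that p63 activates, was at 775 and 990, 429 and 457, and 632 and 569 CPM in the same types. Enam, an enamel matrix gene, was at 933 and 4078 CPM in ameloblast-like cells and at 1.66 and 4.04 CPM in outer dental cells, the types in which Sp6 was high and low, though Enam and Amelx are among the markers that named ameloblast-like cells.

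Across the 55 epithelial subclusters with 15 or more cells, the genes most like each member were found by Pearson correlation of log2(CPM + 1) among 12909 genes. These subclusters share libraries and depth, so the values are descriptions. Sp6 was closest to Shh (0.91), Vwde (0.90) and Exosc2 (0.84), and Satb1 to Smad6 (0.88), Cnksr2 (0.86) and Nudt4 (0.86). Trp63 was closest to Mir205hg (0.90), Amotl1 (0.89) and Cdh3 (0.89). Sox2 was closest to Eya4 (0.87), Egln3 (0.83) and Krt19 (0.83), and Irx1 to Irx2 (0.91), Gm20554 (0.83) and Gm40999 (0.78). Tbx1 was closest to Scube3 (0.76), Creb3l1 (0.74) and Cdh6 (0.74). Tcerg1l (0.77) and Tnfrsf19 (0.77) were among the genes most like Foxi3. Isl1 had no close partner, with Vegfc at 0.67, Tlx1 at 0.59 and March4 at 0.57. Among the members themselves, Sp6 and Satb1 (0.77), Sp6 and Tbx1 (0.65) and Tbx1 and Foxi3 (0.65) went together most closely, and Sox2 ran against Satb1 (-0.78) and Sp6 (-0.76).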

How the data were processed

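Single-cell RNA of 4 pooled mouse molar libraries was analysed. The authors deposited whole-number UMI counts per gene and barcode, unnormalized, made with Cell Ranger 7.0.1 per the file headers, on the mm10 reference of 10x Genomics, and the deposited columns all belonged to these 4 libraries (0 were left unmapped). Barcodes with 1000 or more UMIs were kept. Barcodes of the P1 maxillary library were dropped from the P1 mandibular one. Cells over 3 median absolute deviations in mitochondrial share were removed, and the highest Scrublet scores were taken out as doublets (0.8% of cells per 1000 barcodes).

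Cells were clustered in each library with scanpy 1.11.5 and leidenalg 0.10.2 (Leiden resolution 1.0, 2000 variable genes without the 57 genes under study, 40 principal components, or 20 within epithelium, and 15 neighbours). A cluster took the name of a marker list when the list's markers stood on average at 0.4 or more of their range across clusters, with 3 markers each in 10% or more of its cells. It stayed unnamed where more of its 10 leading genes (100 CPM or more and in 25% of cells) belonged to another list, or where its median UMIs were under its library's divided by 3 and no marker led. The limits for naming were chosen with the clusters in view. Several named clusters held genes that go against their names, and the text does not list all of them. Beside those in the results, 22 E15.5 mandibular cells named erythroid-like were led by Atp6v0d2 and Acp5. A P1 maxillary ameloblast-like subcluster of 108 cells led by Trpc5 had Amelx at 232 CPM, beside 37319 and 11021 CPM in the other subclusters of that type.

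Levels are summed UMIs per 1000000 (CPM) with exact 95% Poisson intervals, ratios have exact binomial intervals and shares have Clopper-Pearson intervals (scipy 1.17.1, numpy 2.4.6, Python 3.11.15, matplotlib 3.10.9). These cover counting error only, and in ratios a class without a UMI was given a floor of 3 counts. With 1 library per stage and jaw no test was made. A gene counted as different between epithelium and mesenchyme at 2-fold, and between stages, jaws or types at 2-fold with an interval leaving out 0, among genes with 10 or more UMIs. The ratio step was tested on simulated data. Shares of cells with a UMI were taken after thinning each cell to 2000 UMIs. Likeness used subclusters of 15 or more cells and genes reaching 20 CPM.

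The text names the 8 genes in every class, and of the lists of relatives, other transcription factors and targets those at 20 CPM or more in an epithelial class. Some of these are not reported here. The genes and lists were chosen with earlier results of these data known. Gene positions come from GENCODE vM21 on the same assembly. Alternatives were other UMI, doublet, gene-number and clustering settings, shared barcodes left out of or kept in both P1 libraries, naming cell by cell, means over cells, and other thinning.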

Additional observations from a re-analysis of the deposited data

Results flagged for a closer look

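Over all epithelium, Isl1 moved in opposite directions between the stages in the 2 jaws. The log2 of P1 over E15.5 was 1.22 in the maxillary libraries (2.99 and 6.96 CPM) and -2.73 in the mandibular libraries (92.2 and 13.9 CPM). The opposite signs are what drew attention to it. The difference was not tested, and each stage and jaw has 1 library; the E15.5 mandibular value comes from 104 cells. The maxillary value at P1 comes mostly from cells outside the named dental types: of 137 UMIs, 46 were in olfactory sustentacular cells, 29 in an unnamed subcluster led by Upk3a and Olfm5, 16 in gland and 8 in ciliated cells. Named maxillary dental types were at 0.849 (ameloblast-like), 1.15 (stellate reticulum or stratum intermedium) and 1.94 CPM (outer dental) at P1 and at 2.68 and 0 CPM at E15.5. The P1 values rest mostly on barcodes shared with the mandibular library, and in the 7, 52 and 16 others the same types were at 160, 29.3 and 80.2 CPM from 4, 3 and 5 UMIs.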

How the results depend on the processing

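Of the values that answer a comparison, 114 settings gave the same result and 33 moved it; of single-gene values, 480 stayed, 154 moved and 11 changed direction. The cause was not tested for any of them. With shared barcodes out of both P1 libraries, the maxillary log2 of P1 over E15.5 changed direction for Trp63 (-1.21), Sox2 (1.01) and Tbx1 (-0.32), and the P1 log2 of mandibular over maxillary did for Sp6 (2.35), Isl1 (-1.40) and Tbx1 (1.05). The count of members that differ between P1 jaws was then 8, against 1, with no share of all genes given at that setting. No maxillary ameloblast-like or odontoblast-like ratio could be given. The P1 jaw value of Sp6 (-0.17) was also 0.04 with shared barcodes kept in both, 0.11 with cells named one by one, 0.14 as a mean over cells and 0.09 without the leading-gene rule (a setting chosen after seeing the data). As a mean over cells, Isl1 was at -0.21, and 3 genes instead of 5 differed between maxillary stages. With a minimum of 2000 UMIs, 2 genes differed between P1 jaws. The share of all genes is not given under any of these alternatives, so such counts are not results about the members.

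The ameloblast over outer dental log2 kept its direction in each setting that gave it. With a minimum of 2000 UMIs it was 4.44 (Sp6) and -0.80 (Trp63) in the maxillary and 3.43 (Sp6) and 3.56 (Satb1) in the mandibular library. With doublets kept it was 3.14 (Satb1), -4.82 (Irx1) and -0.93 (Trp63), and 3.11 (Sp6), 3.01 (Satb1), -3.21 (Irx1) and -0.60 (Trp63). With a limit of 3 MADs on detected genes it was -0.82 (Trp63), and 2.13 (Sp6) and 3.03 (Satb1). At Leiden resolution 2.0 it was 4.51 (Sp6) and -0.87 (Trp63), and 3.38 (Sp6), 3.44 (Satb1), -5.04 (Irx1) and -0.68 (Trp63). Mandibular Satb1 was at 3.81 with shared barcodes kept in both and also without the leading-gene rule, where Trp63 was at -0.68. The Sp6 log2 of odontoblast-like over papilla-like cells was 2.35 (2000 UMIs), 2.29 (resolution 2.0) and 2.06 (mean over cells) in the maxillary library, and 1.66 (doublets kept), 2.28 (shared barcodes kept), 1.49 (cells one by one) and 2.20 (mean over cells) in the mandibular one.

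No paired analysis was possible because each group is 1 library and no result comes from a test. Low UMI numbers limit Foxi3 throughout, Isl1 in maxillary dental cells and the E15.5 mandibular epithelial subclusters, which hold 15 to 30 cells each.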
